A study of Mus musculus with 2 samples.

Results

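Synaptic vesicle release genes encode the proteins that dock, prime and fuse transmitter-filled vesicles at the presynaptic membrane. The set taken here holds 43 mouse genes, taken as a list of release proteins, out of 21728 protein-coding genes on chromosomes 1 to 19 and X. It comprises 10 SNARE genes, 13 synaptotagmin genes, 5 genes for SNARE regulators, 8 for priming and active zone proteins and 7 for vesicle proteins. All 43 were found in the gene annotation. The rule that names them uses no measured value, but the list was chosen with earlier results of these data known.

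The study mapped open chromatin by DNase-seq, which locates where the enzyme DNase I cuts the DNA of isolated nuclei. The tissue was the left cerebral cortex. It came from 2 mice of strain B6CASTF1/J, F1 hybrids of the C57BL/6 and CAST lineages, both male and 36 days old, with 1 library from each. No agent or engineered allele is labelled. Both mice form 1 group, so there is no contrast between conditions and no test, and the values describe these 2 animals. The labels number them as different males under a common donor label. Reads of the parental alleles are not told apart in these values. The tissue is a mixture of cells, so fewer nuclei of a type and less accessibility per nucleus cannot be told apart.

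In fusion, a SNARE of the vesicle (a synaptobrevin, also called VAMP) zips together with SNAREs of the plasma membrane (a syntaxin and SNAP25). Synaptotagmins sense calcium, complexins clamp and assist the SNAREs, and Munc18-type proteins chaperone syntaxins. RIM, Munc13, Bassoon and Piccolo build the active zone, where vesicles are made ready, while synapsins, synaptophysin and SV2 sit on the vesicle itself. In cortex these proteins are the shared release machinery of excitatory and inhibitory neurons, although several SNAREs of the set serve membrane traffic in many cell types.

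A peak is an interval that the authors called accessible, and its height was read as DNase I cuts scaled to the depth of the library, in cuts per M cuts (M, the prefix mega). On that reading the libraries held 160.1 and 145.4 M cuts, with 72021 peaks in replicate 1 and 59150 in replicate 2. A promoter peak comes within 1 kb of an annotated start site of the gene, and the highest such peak is the promoter height, set to 0 where none was listed. A site is a peak or a set of overlapping peaks of the 2 mice, and it is shared where both have a peak. There were 83641 sites, 52.5% of them shared. Footprints are short runs of bases that the authors found protected from cutting, 288172 and 224558 in all, with a median length of 9 bp. Pan-neuronal and excitatory neuron markers of the labelled tissue were present, while those of its other cell types mostly were not present in both mice. All 4 pan-neuronal and all 6 excitatory neuron markers had a promoter peak in both mice. None of 6 inhibitory, 1 of 5 astrocyte, 1 of 5 oligodendrocyte, 0 of 4 microglia and 0 of 4 endothelial markers did. In replicate 1 taken by itself these counts were 3, 3, 1, 0 and 1, and in replicate 2 they were 1, 1, 2, 0 and 0. Of 6 genes of other organs, 1 did, the kidney gene Nphs1.

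Promoter peaks of 3 release genes are shown because they carry the footprint results described further on. Capitals are bases inside a footprint in both mice, and each runs 5′ to 3′ on the strand of its gene from the peak of replicate 1, cut at 50 bases after the start site where the peak runs on. Sequence is from GRCm38.p6, the sequence release of mm10. All patterns were read in this reference, and differences in letters between the parental alleles of these hybrids were not examined. Vamp2 and Syt5 are among the 10 highest promoters, while Syp was chosen after its values were seen. The intervals are chr11:69088401-69088559 on the plus strand for Vamp2, chr7:4546601-4546820 on the minus strand for Syt5 and chrX:7638501-7638687 on the plus strand for Syp.
Vamp2: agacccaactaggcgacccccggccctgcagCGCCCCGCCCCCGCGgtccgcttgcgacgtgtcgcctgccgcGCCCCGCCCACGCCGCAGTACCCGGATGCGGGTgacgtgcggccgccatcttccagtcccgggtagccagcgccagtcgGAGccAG
Syt5: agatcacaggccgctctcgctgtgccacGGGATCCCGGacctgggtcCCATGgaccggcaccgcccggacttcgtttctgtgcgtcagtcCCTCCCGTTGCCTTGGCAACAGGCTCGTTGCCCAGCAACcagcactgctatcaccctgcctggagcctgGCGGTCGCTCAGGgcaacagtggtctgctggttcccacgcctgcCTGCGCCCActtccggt
Syp: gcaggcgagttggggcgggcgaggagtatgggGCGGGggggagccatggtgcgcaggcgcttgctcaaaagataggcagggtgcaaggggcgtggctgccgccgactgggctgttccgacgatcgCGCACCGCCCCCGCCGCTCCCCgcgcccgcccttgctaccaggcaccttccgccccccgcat
The start site nearest the middle of the peak is base 110 of the Vamp2 sequence and base 138 of Syp. The Syt5 peak ends upstream of the innermost annotated start of its gene, and its middle lies 831 bp inside the annotated gene.

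Nearly every release gene had an accessible promoter. In replicate 1 the count was 42 of 43 (97.7%), beside 63.5% of all protein-coding genes. In replicate 2 it was 37 of 43 (86.0%), beside 58.4%, and the same 37 had one in both mice, beside 57.7%. Syt6 was the only member with none in either mouse. Their promoters were, however, not high among accessible promoters. The median of the mean heights was 2.56 for the members and 1.55 for all protein-coding genes, genes at 0 included. Among genes with a peak in both mice it was 2.93 for the members and 3.79 for all such genes, and 16 of the 37 members lay above 3.79. Members had a median GC content of 61.0% in 1 kb around the gene start, beside 54.9% for all genes, and a median CpG ratio (observed over expected) of 0.684, beside 0.558. The part of base composition in the counts was not tested. Across the 43 members the mean height had a Spearman rho of 0.06 with the CpG ratio, while across all 21728 genes it was 0.71. The sets are unlike, since 7760 of all genes had no peak in either mouse, beside 1 member. The rho among genes with a peak was not taken. These points are genes that share both libraries, and they are not replicates.

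**Figure D1:**
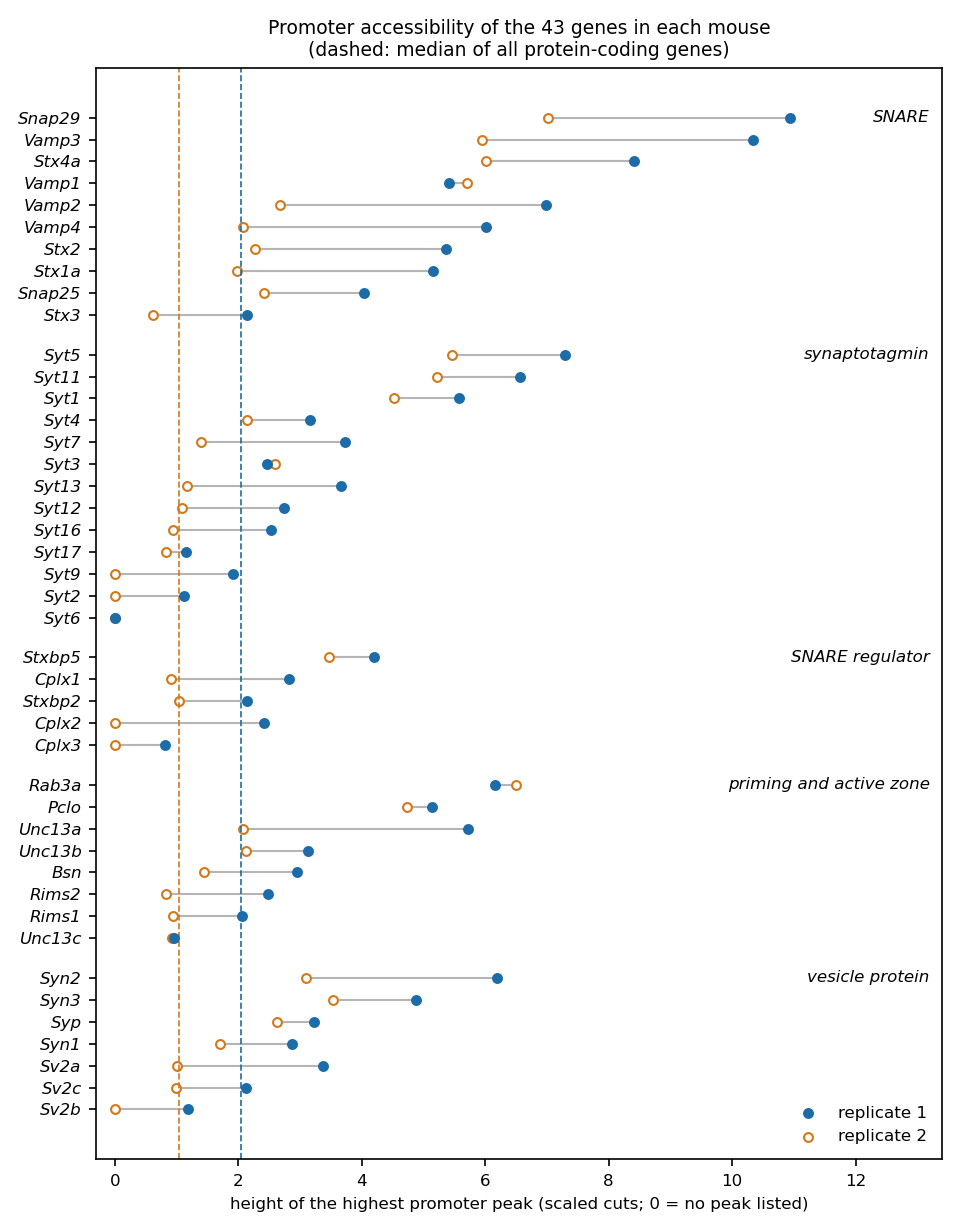
Height of the highest promoter peak (horizontal axis, cuts per M cuts, 0 where no peak was listed) for each of the 43 genes, grouped by role and ordered by mean height, with replicate 1 filled and replicate 2 open. Dashed lines are the medians of all protein-coding genes, 2.05 in replicate 1 and 1.04 in replicate 2. Snap29, Vamp3 and Stx4a stand highest, and 6 genes have a point at 0 in at least 1 mouse.

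In both mice a promoter peak was listed for all 10 SNARE genes, and their median of mean heights, 4.44, was the highest of the 5 roles. The 3 highest promoters of the whole set belonged to SNAREs that act in membrane traffic of many cells. Snap29, which acts in endosomal and autophagosomal fusion, had 10.9 in replicate 1 and 7.02 in replicate 2 (8.98 ± 2.77, mean ± SD, n = 2). Its peak also lies within 1 kb of a start of Pi4ka, a lipid kinase gene transcribed the other way, and cannot be assigned to either. It spans chr16:17405781-17406040 in replicate 1. Vamp3, the cellubrevin of recycling endosomes, had 10.3 and 5.94 (8.14 ± 3.11). Stx4a, a plasma membrane syntaxin of many cell types, had 8.41 and 6.02 (7.21 ± 1.69). These values put Snap29, Vamp3 and Stx4a at percentiles 97.5, 95.7 and 92.9 of mean height among all protein-coding genes.

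The 3 SNAREs of the neuronal fusion complex lay lower. Vamp2, the main synaptobrevin of forebrain vesicles, had 6.99 in replicate 1 and 2.68 in replicate 2 (4.83 ± 3.05). Stx1a, a presynaptic syntaxin, had 5.15 and 1.98. Snap25, the plasma membrane partner of both, had 4.03 and 2.42 (3.23 ± 1.14). In each of the 3 genes replicate 1 was the higher, at 1.67 to 2.61 times replicate 2. Vamp1, the synaptobrevin most used in hindbrain and spinal cord, had 5.41 and 5.71, so that the mice lay close together and replicate 2 slightly above. Vamp4, a SNARE of the trans-Golgi network and endosomes, had 6.01 and 2.08. Stx2 had 5.37 and 2.28, and Stx3, the syntaxin of ribbon synapses and of apical membranes, had 2.14 and 0.626, the lowest of the SNAREs.

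The synaptotagmins spread from the fourth highest promoter of the set to the only gene with no peak. Syt5 had 7.29 in replicate 1 and 5.47 in replicate 2 (6.38 ± 1.29). Syt11, a form that does not bind calcium, had 6.57 and 5.22. Syt1, the calcium sensor of fast synchronous release in forebrain, had 5.58 and 4.53 (5.05 ± 0.743). These 3 genes showed a small gap between the mice, with replicate 1 at 1.23 to 1.33 times replicate 2. Below them came Syt4 with 3.15 and 2.14, and Syt7, the high-affinity sensor of slower release, with 3.73 and 1.39. Syt3 had 2.47 and 2.59, a peak that also lies near a start of 1700008O03Rik. Syt13 had 3.67 and 1.18, Syt12 2.75 and 1.09, Syt16 2.54 and 0.949, and Syt17 1.15 and 0.826. Syt7 and Syt17 had their highest peak at different places in the 2 mice.

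Syt2, Syt6 and Syt9 were the synaptotagmins without a promoter peak in replicate 2. Syt2, the fast sensor of hindbrain synapses and of some inhibitory neurons, had 1.12 in replicate 1 and no peak in replicate 2. That peak lies 62572 bp into the gene, at an inner start site, and at the first start site the peak had 0.712. Syt9, another fast sensor, had 1.92 and no peak. In the longer of the authors' peak lists, Syt2 had 0.523 and Syt9 0.406 in replicate 2, and Syt6 had 0.568 in replicate 1 alone. The authors' false discovery rates (q-values) give the same order. Within 1 kb of the Syt9 start sites the lowest q was 3.96e-31 in replicate 1 and 3.63e-02 in replicate 2. Around Syt2 it was 3.6e-07 and 1.38e-02, and around Syt6 it was 1.74e-03 in replicate 1, with no base listed in replicate 2.

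The SNARE regulators held the lowest median of mean heights among the roles, 1.59, and 3 of the 5 had a promoter peak in both mice. Stxbp5 (tomosyn), which competes with synaptobrevin for syntaxin and SNAP25, had 4.19 and 3.47, from peaks at different places. Stxbp2, the Munc18 of granule-secreting blood cells and of many epithelia, had 2.15 and 1.04. Cplx1, a complexin, had 2.82 and 0.908. The other complexins had a peak in replicate 1 alone. Cplx2 had 2.41 there, and Cplx3, the complexin of ribbon synapses and of deep cortical layer neurons, had 0.812. In the longer list Cplx2 had 0.894 in replicate 2 and Cplx3 still had none. The lowest q near the Cplx2 starts was 1.6e-08 in replicate 1 and 1.81e-02 in replicate 2, while at Cplx3 it was 2.66e-04 and not listed.

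In both mice a promoter peak was listed for all 8 priming and active zone genes, with a median of mean heights of 2.41. Rab3a, the small vesicle GTPase that binds RIM, led them with 6.16 in replicate 1 and 6.49 in replicate 2 (6.33 ± 0.237). Pclo (Piccolo), a giant scaffold of the active zone, had 5.13 and 4.73 (4.93 ± 0.284). These promoters were close in height between the mice. Unc13a, the main Munc13 priming factor of excitatory synapses, had 5.72 and 2.08, Unc13b 3.14 and 2.13, and Unc13c, best known from the cerebellum, 0.956 and 0.922. Bsn (Bassoon) had 2.95 and 1.44. The RIM scaffolds were lower, Rims1 with 2.06 and 0.936 and Rims2 with 2.49 and 0.832, and the Rims2 peaks lay at different places.

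Among the 7 vesicle protein genes, 6 were listed with a promoter peak in both mice, and the median of mean heights was 2.29. The synapsins tether vesicles to each other and to actin. Syn2 had 6.18 in replicate 1 and 3.09 in replicate 2 (4.64 ± 2.19), Syn3 had 4.88 and 3.54, and Syn1, on the X chromosome, had 2.87 and 1.71. Syp (synaptophysin), also on X and the most used histological marker of vesicles, had 3.23 and 2.63. Males carry 1 X, and heights of X-linked and autosomal promoters were not corrected for copy number. The SV2 transporter-like proteins were lower than the other 4 in replicate 2 and by mean height, though in replicate 1 Sv2a exceeded Syn1 and Syp. Sv2a had 3.38 and 1.00, Sv2c 2.12 and 0.998, and Sv2b 1.19 in replicate 1 with none in replicate 2 in either list.

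Other synaptic gene lists give a scale for these counts. Of 51 further genes of the release pathway, such as Rab, liprin, synaptogyrin and NSF family members, a promoter peak was listed for 48 in replicate 1 and for 45 in replicate 2, with a median of mean heights of 2.73. Of 14 postsynaptic scaffold genes (Shank, Dlg, Dlgap and Homer) 14 and 13 had one, with 2.48. All 6 neurexin and neuroligin genes had one in both mice, with 3.37. The differences between these lists and the 43 members were not tested.

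Heights were larger in replicate 1 at most of these promoters. Of the 37 members with a peak in both mice, 34 were higher in replicate 1 and 3 in replicate 2, namely Vamp1, Rab3a and Syt3. The median ratio of replicate 1 to replicate 2 was 1.74 for the members and 1.65 for all protein-coding genes, of which 11415 were higher in replicate 1 and 1115 in replicate 2. The tilt of the members is therefore near that of the libraries as a whole. The highest ratios of replicate 1 to replicate 2 were at Stx3 (3.41), Sv2a (3.36), Syt13 (3.12), Cplx1 (3.10) and Rims2 (2.99). The lowest were at Vamp1 (0.947), Rab3a (0.948), Syt3 (0.954), Unc13c (1.04) and Pclo (1.08). Exact Poisson 95% intervals of the cuts behind the 2 heights overlapped at these 5 genes. At the other 32 of 37 (86.5%) replicate 1 was higher with intervals apart, beside 80.6% of the 12530 protein-coding genes with a peak in both mice, so this count too follows the libraries. At Rab3a they ran from 5.78 to 6.56 and from 6.09 to 6.92, and at Stx3 from 1.92 to 2.38 and from 0.504 to 0.769. These intervals cover counting error only. The order of the members was kept in part, with a Spearman rho of 0.89 between the mice over the 43 members and 0.95 over all genes. The latter includes 7760 genes with no peak in either mouse.

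**Figure D2:**
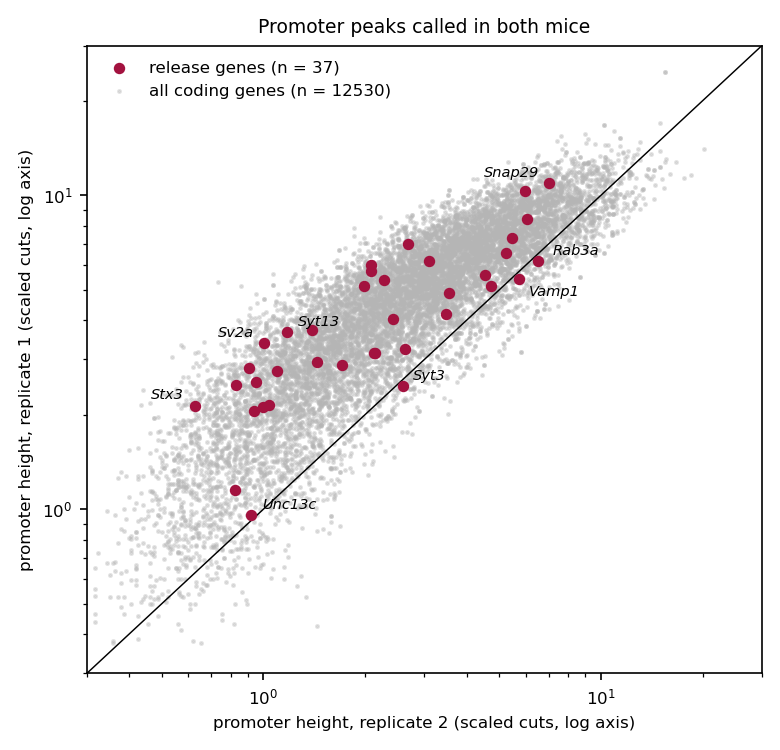
Promoter height in replicate 1 (vertical, cuts per M cuts) against replicate 2 (horizontal), both on log axes, for the 37 release genes (red) and the 12530 protein-coding genes (grey) with a promoter peak in both mice. The line marks equal heights. Of the 37 release genes, 34 lie above it.

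Most promoter peaks, which by definition come within 1 kb of a start site, were centred close to one. The middle of the highest peak was within 150 bp of an annotated start at 37 of 42 members (88.1%) in replicate 1, beside 76.9% of all genes with a peak, and at 33 of 37 (89.2%) in replicate 2, beside 76.4%. The highest peaks of the 2 mice overlapped at 33 of the 37 members (89.2%), beside 92.0%. Several genes had peaks at annotated inner start sites, whose use in transcription was not measured. The highest Stx4a site (8.41 and 6.02, chr7:127841381-127841640) lay 17216 bp inside the annotated gene, and Stx4a had 4 shared promoter sites. The Syt11 peak lay 2554 bp inside its gene and the Syt5 peak 831 bp inside. Unc13b had 4 shared promoter sites, with 3.14 and 2.13 at the first start and 3.02 and 1.57 at 150257 bp into the gene. Rims2 had 4, spread from its first start to 461349 bp inside, where the site had 1.34 and 0.832. In all, 23 members (53.5%) had 2 or more shared promoter sites, beside 18.8% of all protein-coding genes. The number of annotated start sites was not matched in these shares.

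Promoters included, 336 sites lay in the 43 genes and 10 kb to each side, 190 of them shared (56.5%), beside 52.5% of all sites. The median member had 4 shared sites and the median protein-coding gene 2. Members were longer, with a median length of 44.3 kb, beside 17.4 kb, and per 100 kb of gene and flanks they had 4.46 shared sites, beside 3.10. Of the shared sites 67 were at the gene's own start sites, 67 in introns, 27 in flanks, 6 in exons and 23 at a start site of another gene. Among shared sites, those at a start site of another gene had the highest median of mean heights, 2.65. Own promoter sites had 2.16, exon sites 1.65, intron sites 1.26 and flank sites 1.23. In all, 34 members (79.1%) had a shared site away from any start site, 100 such sites together, beside 41.4% of all protein-coding genes. Gene length, which differs as given above, was not matched in these shares. Spearman's rho of shared sites with gene length was 0.41 over the members and 0.43 over all genes.

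**Figure D3:**
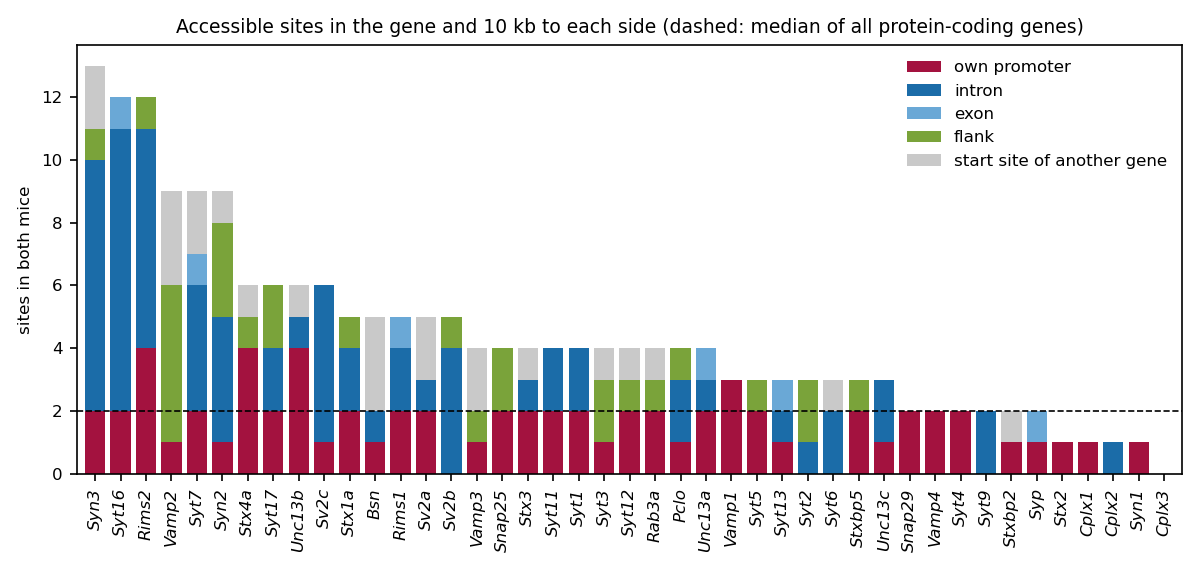
Number of sites with a peak in both mice (vertical axis) in each of the 43 genes and 10 kb to each side, coloured by where the site lies, with genes in falling order. The dashed line is the median of all protein-coding genes, 2. Syn3 has 13 such sites, Syt16 and Rims2 have 12, and Cplx3 has 0.

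Syn3 had the most shared sites, 13, of which 2 lay at its own promoter and 8 in introns. Its gene encloses Timp3, whose start sites hold 2 of the sites counted. Syt16 and Rims2 had 12 each. In Syt16 the intron sites at 58035 bp (2.25 and 1.77) and at 16299 bp from the gene start (2.28 and 1.70) had mean heights above that of the promoter (2.54 and 0.949). In Rims2 the highest site by mean height lay in an intron 163959 bp from the gene start (chr15:39362121-39362320), with 1.71 in replicate 1 and 2.18 in replicate 2, against 2.49 and 0.777 at the promoter. Vamp2, Syt7 and Syn2 followed with 9 each.

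In Syt7 an intron site 9380 bp from the gene start (chr19:10398261-10398680) was the highest of the gene, with 5.55 and 4.00. A second intron site at 8880 bp had 4.25 and 1.73. Both exceeded the promoter sites, whose highest had 3.73 and 1.38.

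Vamp2 lies beside Per1, and Vamp3 beside Per3, both genes of the circadian clock. Per1 start sites, within 10 kb of Vamp2, held 11.4 and 13.9 at the highest, 7.46 and 5.21, and 6.23 and 2.56. A flank site 8660 bp from the Vamp2 gene start (chr11:69097021-69097280) had 8.11 and 3.55, above the promoter of Vamp2 in both mice. Sites at Per1 starts lie on both sides of it, at 6510 and 10380 bp from the Vamp2 gene start. The Per3 start site, 13163 bp from the Vamp3 gene start, had 10.4 and 5.40, close to the Vamp3 promoter. A site near neighbouring genes cannot be assigned to either from these data.

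Several members without a promoter peak in at least 1 mouse had shared sites elsewhere. Cplx2 had an intron site 1567 bp from its start (chr13:54372801-54373032) with 4.38 in replicate 1 and 2.08 in replicate 2, while its promoter had 2.41 and no peak. Sv2b had 5 shared sites, none at its promoter. The highest, in an intron 43832 bp from the gene start (chr7:75265301-75265560), had 2.32 and 0.901, and another at 37092 bp had 1.36 and 1.16. Syt6 had 3 shared sites, all inside the gene, at 25969, 37619 and 37919 bp from its start. The first of these, at the start of a transcript of another gene, had 1.29 and 1.30. Syt9 had 2 shared intron sites, of 0.637 and 0.743 at 29599 bp and 0.531 and 0.770 at 155782 bp. Cplx3 had no shared site at all.

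**Figure D4:**
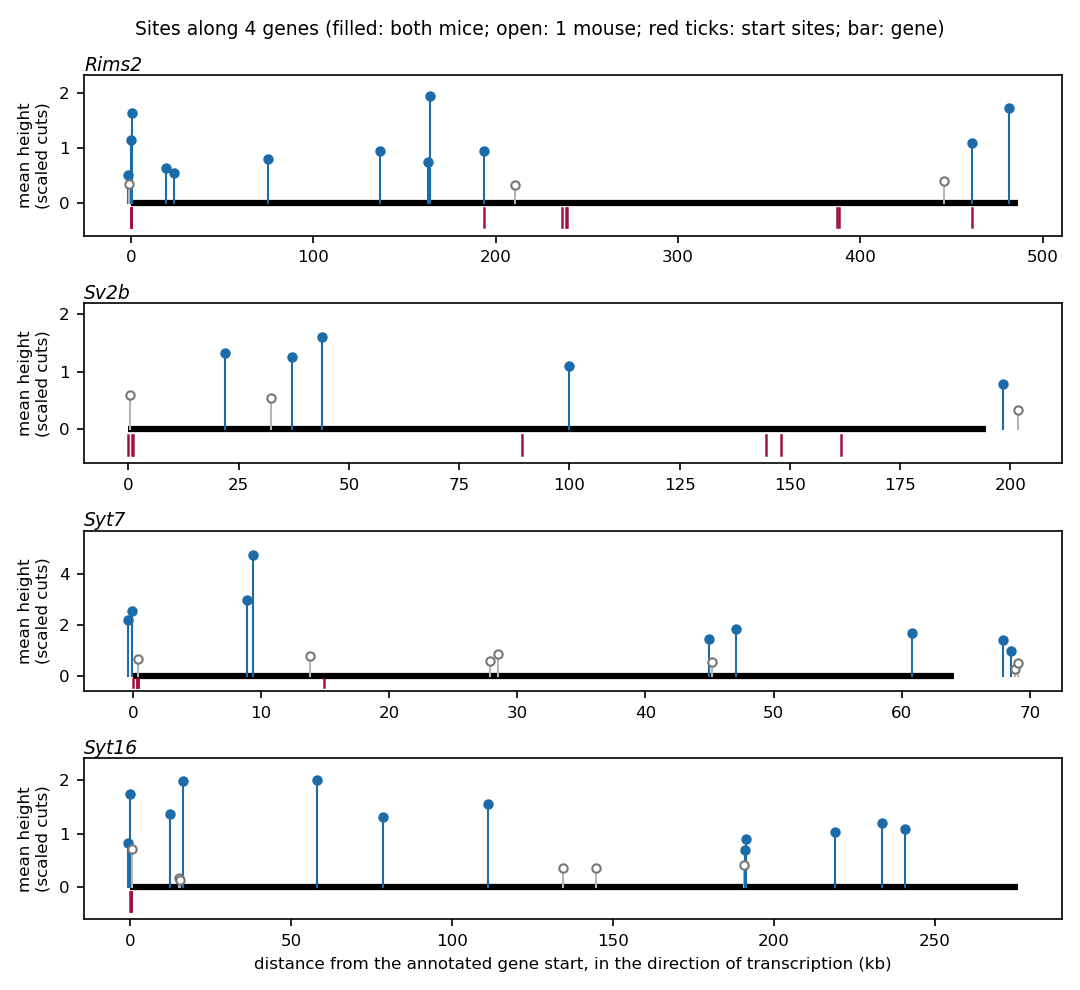
Sites along Rims2, Sv2b, Syt7 and Syt16, with distance from the annotated gene start in the direction of transcription (horizontal, kb) and mean height over the 2 mice (vertical, cuts per M cuts, a missing peak taken as 0). Filled points are sites in both mice, open points sites in 1 mouse, red ticks annotated start sites and the bar the gene. Sv2b has no filled point at its first start, and the highest point of Syt7 lies 9380 bp inside the gene.

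Single strong sites lay near other members too. Syt3 had a flank site 21728 bp from the gene start (chr7:44405601-44406060) with 5.07 in replicate 1 and 6.97 in replicate 2, above its promoter in both. Unc13a had a site in an exon, 42277 bp from the gene start, with 5.05 and 2.69. Rab3a had a flank site at -1309 bp from the gene start with 4.87 and 1.77. Of these only the Syt3 site was higher in replicate 2. Stx1a had a flank site at -7812 bp with 3.37 and 2.60, and Syt13 an intron site at 19392 bp with 3.04 and 2.59. Snap25 had a flank site at -1193 bp with 3.37 and 2.00. In replicate 2 the Stx1a and Syt13 sites were higher than the promoter of their gene, and the Snap25 site was lower.

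Footprints lay in nearly every promoter peak. Of the 37 members with a promoter peak in both mice, 36 (97.3%) had a footprint wholly inside the highest peak of both, beside 97.6% of all genes with such peaks. The share is that of accessible promoters at large. Over all 43 members and all protein-coding genes, those without a peak included, the counts are 36 and 56.3%. Sv2a alone of the 37 had no footprint in replicate 2. Its peak there had 146 cuts, while that of Stx3, with 91 cuts, held 2 footprints. Over the 33 members with overlapping peaks, the common 6892 bp held 1627 footprint bases in replicate 1 and 1852 in replicate 2. Of these 977 were in both, 60.0% of those of replicate 1 and 52.8% of those of replicate 2. The agreement varied between genes. At Vamp2 76.2% of the bases in either footprint set were in both, at Syt5 62.3%, at Syp 36.0% and at Snap25 17.4%.

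Known binding patterns fell in some of these footprints. Patterns were searched on both strands, and a match describes letters and not a bound factor. In the Vamp2 sequence, matches to the pattern of the EGR family (GCG, 1 free base and GGGCG) begin at bases 37 and 78, both wholly inside footprints of both mice. Each overlaps a match to the GC box of SP factors (GGGCGG). In the Syp sequence an EGR match begins at base 131 and lies wholly in footprints, again overlapping a GC box. In the Syt5 sequence a match to the RFX pattern (GTT, 1 free base, CCATGG, 1 free base and AAC, with up to 2 mismatches) begins at base 97 and lies wholly in footprints of both mice.

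Pattern shares were taken in 200 bp around the middle of the highest promoter peak of replicate 1, 42 for the members and 12499 for all protein-coding genes. The GC box was in 81.0% of the member promoters (exact 95% interval 65.9 to 91.4), beside 60.8% of all. The EGR pattern was in 21.4% (10.3 to 36.8), beside 10.6%. Its letters read in reverse, a control of equal composition, were in 26.2% and 10.6%, so the EGR share was no higher than that of its reversed letters. For the GC box the reversed letters were in 69.0% and 60.5%. The NRF1 pattern (GCGCA followed by TGCGC, up to 1 mismatch) was in 16.7% and 12.6%, and that of CTCF (CCA, 2 free bases and AGGGGGCGC, up to 2 mismatches) in 16.7% and 11.0%. The CCAAT box was in 19.0% (8.60 to 34.1) and 29.4%. AP-1 (TGANTCA) was in 2.38% and 2.56%, and the cyclic AMP response element (TGACGTCA) in 4.76% and 3.32%. The E-box CAGATG was in 4.76% and 6.65%, the RFX pattern in 4.76% and 3.01%, and MEF2 in 0% and 0.352%. These intervals treat the promoters as independent draws, which chosen genes of a shared library are not, so differences from all promoters were not tested. Members also have more GC in their promoters.

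**Figure D5:**
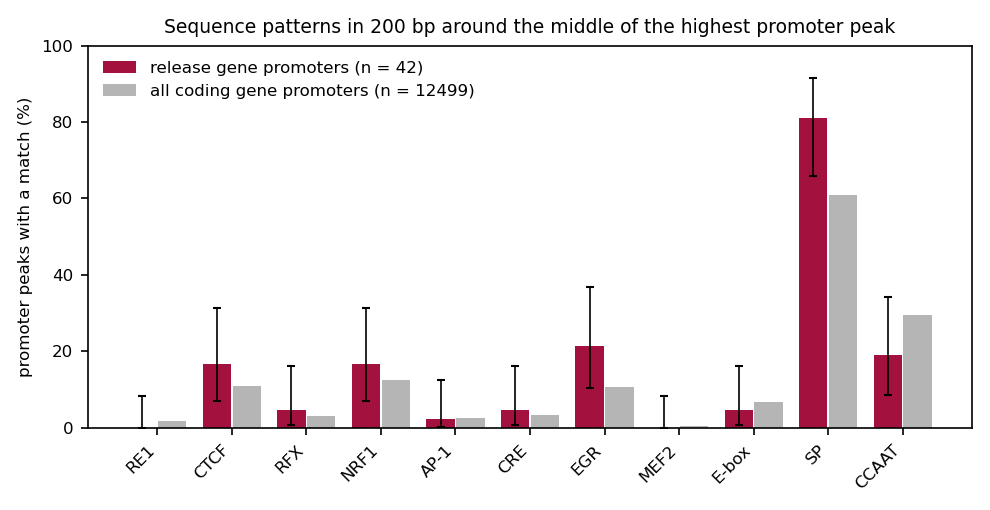
Share of promoter peaks with at least 1 match to each pattern (vertical axis, percent) in release gene promoters (red, n = 42, bars of the exact 95% interval) and in promoters of all protein-coding genes (grey, n = 12499). The GC box (SP) stands at 81.0% and 60.8%, the CCAAT box at 19.0% and 29.4%, and RE1 at 0% and 1.85%.

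At the 100 shared sites of members away from start sites, the patterns were others. These shares too were taken in 200 bp windows, so matches near the edges of wider sites are not counted. The CTCF pattern was in 8% (3.52 to 15.2) of the windows, beside 17.5% of those at 26073 such sites in all. In all 8 a match lay at least 50% inside a footprint of 1 or both mice. The CCAAT box was in 28.0% and 21.6%, the E-box in 23.0% and 26.3%, and AP-1 in 9% and 13.1%. Over the whole length of all shared sites, 15 of the 43 members (34.9%) had a CTCF match, beside 29.8% of protein-coding genes. The Cplx2 intron site of 4.38 and 2.08 holds a CTCF match inside footprints of both mice, as do intron sites of Rims2, Syt16, Stx3 and Syt7 and the promoter site of Syn3. The Cplx2 site and the higher of the Rims2 sites are shown whole because each is the highest site of its gene and lies away from any start site. Capitals mark the CTCF match, 5′ to 3′ on its strand, with 2 mismatches to the letters searched in both.
Cplx2 intron site, chr13:54372801-54373032, minus strand: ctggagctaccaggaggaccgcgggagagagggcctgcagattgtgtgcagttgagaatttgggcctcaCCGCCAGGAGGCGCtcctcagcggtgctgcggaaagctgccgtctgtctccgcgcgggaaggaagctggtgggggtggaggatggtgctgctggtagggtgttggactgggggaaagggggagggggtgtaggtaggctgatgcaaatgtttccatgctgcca
Rims2 intron site, chr15:39362121-39362320, plus strand: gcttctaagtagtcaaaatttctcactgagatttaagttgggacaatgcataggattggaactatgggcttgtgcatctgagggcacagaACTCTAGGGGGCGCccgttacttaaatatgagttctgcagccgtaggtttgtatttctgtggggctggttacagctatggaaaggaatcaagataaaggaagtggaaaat
All 14 bases of both matches were inside footprints of both mice.

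RE1 is the element bound by the repressor REST, which silences neuronal genes outside neurons, and Syn1 is a textbook target. The letters searched were CAGCACC, 2 free bases and GGACAG. Exact matches in the genes and 10 kb to each side are shown because they recur in this set while none lies wholly inside a peak of the main lists, and the Syn1 match, with 1 mismatch, because it lies in one. Capitals are the match, 5′ to 3′ on the strand of the match, with 7 bases to each side from GRCm38.p6. The match to Syt4 is not shown.
Snap25 first match: gggagctCAGCACCCTGGACAGgagtgct
Snap25 second match: gacctttCAGCACCGCGGACAGcgatccg
Syp: cgcgctcCAGCACCGTGGACAGagcccgg
Syt2: ggatattCAGCACCACGGACAGcacccac
Syt6: gaatcttCAGCACCGCGGACAGggacact
Syt7: gagtgttCAGCACCAAGGACAGggatatc
Syt9: gcagctcCAGCACCACGGACAGtgccaag
Syn1: tcggattCAGCACCGCGGTCAGagccttc
The printed intervals, in the same order, are chr2:136714283-136714311 (plus strand), chr2:136714333-136714361 (plus strand), chrX:7638732-7638760 (plus strand), chr1:134665000-134665028 (plus strand), chr3:103573984-103574012 (plus strand), chr19:10403276-10403304 (plus strand), chr7:107392954-107392982 (minus strand) and chrX:20921127-20921155 (minus strand).

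Such exact matches were in 7 of the 43 members (16.3%), beside 2.32% of all protein-coding genes, and amount to 1.33 and 0.370 per Mb. Snap25 had 2, in an intron at 819 and 869 bp after a start site, and Syp, Syt2, Syt4, Syt6, Syt7 and Syt9 had 1 each. Counted from the nearest start site of the gene, the Syp match lies at 24 bp, that of Syt4 at 217 bp, that of Syt7 at -728 bp and that of Syt6 at -1233 bp. The matches of Syt2 (18333 bp) and Syt9 (22178 bp) lie farther away. The start nearest the Syt7 match is an inner one, 14.9 kb from the gene start. How near such matches lie to starts over all genes was not measured. None lay wholly inside a peak of either mouse in the shorter lists. The Syp match has 2 of its 15 bases at the end of the promoter peak in both mice. The Snap25 matches lie in a peak of the longer list in replicate 2, and 7 bases of the second are in a footprint of replicate 1. Across the genome 620 exact matches were found, 7.90% of them wholly inside a peak of replicate 1 and 2.90% inside a peak of replicate 2.

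With up to 1 mismatch, 21 members (48.8%) and 19.8% of all protein-coding genes had a match, and per Mb the counts were 4.31 and 3.81. The share per gene was not corrected for gene length. With up to 2 mismatches, 2 members had a match in a shared site, Syn1 and Rims1, beside 5.07% of all protein-coding genes, so their share (4.65%) is near the background. The Syn1 match lies at -137 bp from a start site, wholly in the peak of replicate 1 and outside that of replicate 2. The Rims1 match lies in its promoter site, with 8 of 15 bases in a footprint of replicate 1 and 0 in replicate 2. No RE1 match was found in the 200 bp windows at the 42 member promoters (upper limit of the exact interval 8.41%), beside 1.85% of all promoters.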

How the data were processed

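DNase-seq was measured in left cerebral cortex of 2 male mice, 1 library each. The deposited files on mm10 give, for each library, footprints, false discovery rates and peaks, the last in 2 lists of different length. Which aligner, peak caller, footprint caller and cut-offs the authors used is not given in the sources used here. Each deposited peak carries a signal, its height, with no stated unit. In each library all heights (100%) came within 0.02 of a whole multiple of a smallest step. They were read as cut numbers divided by depth, which puts the libraries at 160.1 and 145.4 M cuts. False discovery rates, deposited as a q-value (adjusted p-value) for stretches of bases, go no higher than 0.05. The deposited footprint score was constant and was not used.

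The shorter peak list was the main one. Gene models with their start sites are those of GENCODE M21, and bases were read from GRCm38.p6. Peaks were joined into sites by an overlap of at least 1 bp. Site classes are own promoter (within 1 kb of a start of the gene), start site of another gene, exon, intron or flank. Patterns were matched on both strands, and footprint matches needed 50% of their length inside a footprint. Work used Python 3.11.15, NumPy 2.4.6, pandas 2.3.3, SciPy 1.17.1, pysam 0.24.0, bedtools 2.31.1 and matplotlib 3.10.9, and the procedures were tested on simulated data. With 1 group there is no test and no p for a difference. Errors are the SD over 2 mice. Intervals of heights and of the height ratio cover counting error only. Those of pattern shares are exact binomial intervals over the windows searched.

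The members, gene lists, patterns and alternatives were chosen with earlier results of these data known. The text names in full the 10 highest promoters, each member without a promoter peak in a mouse, the 5 members with the most shared sites (6 with ties), the 5 with the highest and the 5 with the lowest ratio of replicate 1 to replicate 2 and each member with an RE1 match in a shared site. Other members are named by role, and the Syp sequence and the single sites away from promoters were chosen after their values were seen. Of 52 further pathway genes listed, 51 were found on the chromosomes used. As alternatives, values were recomputed with the longer list, the higher 50% of peaks, other windows and overlaps, coding transcripts alone, other mismatch limits, unscaled cuts and leaving out each mouse.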

Additional observations from a re-analysis of the deposited data

How the results depend on the processing

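Of 43 alternatives to the 6 summary values, 27 stayed, 16 moved and 0 reversed. A count stayed within 1.5 times the main count, a median height or number of sites within 1 SD over the mice, and the height ratio within the exact binomial interval of counting error of the member at the median, 1.60 to 1.89. The count of members with a promoter peak in both mice (37), their median height (2.56) and the count with a footprint in both (36) were among those that stayed. For the median height the SD comes from the single-mouse values themselves, so leaving out a mouse was no independent check of it. The first was 30 with the higher 50% of peaks and 40 with the longer list. The median of 4 shared sites per member became 5 with the longer list and 3 with the higher 50% of peaks, with the gene body alone and with reciprocal overlap of at least 50%. Leaving out a mouse gave 5 to 6, but these count every peak of the other mouse, since no site can then be shared. The 2 members with an RE1 match in a shared site became 7 with the longer list and 20 with up to 3 mismatches. They became 1 with up to 1 mismatch, with the higher 50% of peaks, with the gene body alone and with reciprocal overlap. With a mouse left out the count was 3 to 4, again over every peak of the other mouse. The median height ratio of 1.74 became 2.03 with the longer list, 2.00 within 500 bp of start sites and 1.92 as unscaled cuts. The cause of these moves was not tested. No paired analysis was possible because both mice form 1 group with no contrast.

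The lists give no height where no peak was called, so a promoter without a peak is not shown to be closed. In replicate 2, Cplx2 (0.894), Syt2 (0.523) and Syt9 (0.406) had a promoter peak in the longer list alone. The Cplx2 value exceeds the 0.626 of Stx3, which the shorter list holds, so that list does not follow height alone. Replicate 2 has fewer cuts and fewer peaks. The members missing from the shorter list of replicate 2 but not from that of replicate 1 (Cplx2, Cplx3, Sv2b, Syt2 and Syt9) had heights of 0.812 to 2.41 in replicate 1. Nothing in the values says how far the 2 libraries differ through preparation, and this was not tested.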
